A study of Homo sapiens with 15 samples.

Results

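The genes described here encode the proteins of the cytosolic ribosome, measured by RNA-seq in 15 libraries of 143B, an established human osteosarcoma cell line. They were chosen by symbol: every protein-coding gene present in both count tables whose name is RPL or RPS followed by a digit, with RPLP0, RPLP1, RPLP2 and RPSA added and the RPS6K kinases and RPS4Y genes left out. The rule found 89 of 62700 genes, of which 20046 were protein-coding. Of the 89, 77 encode the canonical proteins and are called core members, 46 of the large and 31 of the small subunit. Another 8 are paralogs with a symbol derived from a core member, 3 are readthrough loci that join a core member to its neighbouring gene (RPL17-C18orf32, RPL36A-HNRNPH2 and RPS10-NUDT3), and 1, RPS19BP1, encodes a binding protein of RPS19. The symbol marks no ribosomal protein of its own for the last 4.

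The study asked how pyruvate dehydrogenase kinase 1 (PDK1), a mitochondrial kinase that holds pyruvate back from the citric acid cycle, acts in osteosarcoma stem cells (OSC). There were 5 groups of 3 libraries. Non-OSC libraries came from unmodified 143B cells grown attached to plastic in medium with serum, and OSC libraries from unmodified 143B cells grown as floating spheres in serum-free medium with growth factors, so that state, medium and culture format cannot be told apart. The shCtrl, shPDK1_1 and shPDK1_2 libraries came from 143B cells infected with a lentivirus that carried a control or one of the 2 short hairpin RNAs (shRNAs) against PDK1, and all 3 were OSC, so the spheres' culture is shared by control and knockdown. All groups descend from 1 cell line. The sources used here do not say that replicates were separate cultures, so p-values measure the spread between these libraries, which may be technical.

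The ribosome is built from ribosomal RNA and a set of small, mostly basic proteins that are needed in about equal numbers, and the genes for them are among the most highly transcribed of any growing cell. Most of these messenger RNAs begin with a C followed by a short run of C and T bases, the terminal oligopyrimidine (TOP) motif, through which mTOR and the RNA-binding protein LARP1 set how much of them is translated and kept. Because their sequences have been copied back into the genome many times, the human ribosomal protein genes are a major source of processed pseudogenes, and reads from a gene and its copies are hard to separate. In bulk RNA, fewer cells of a kind and less RNA per cell cannot be told apart.

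The libraries held 7992499 to 11256536 counts each, and between-library variation within a group was low, with a biological coefficient of variation of 0.0549 in the OSC and non-OSC table and 0.0482 in the shRNA table. PDK1 itself, in CPM (counts scaled to a common library size), was 45.4, 51.6 and 42.9 in non-OSC and 73.6, 69.9 and 67.5 in OSC. It was 46.7, 44.7 and 44.4 in shCtrl, 28.98, 27.8 and 27.3 in shPDK1_1 and 18.3, 21.5 and 19.6 in shPDK1_2, which left 62.0% and 43.7% of the control level, and the groups did not overlap. Of the osteoblast lineage markers, SPARC and COL1A1 were at 544 CPM or more and 390.1 CPM or more in every library, while SP7, the osteoblast transcription factor, was at 0 in 13 libraries and IBSP at 0 in all 15. Markers of this list moved with the groups: COL1A1 and SPARC rose in OSC, with log2 changes of 1.34 (SE 0.051, edgeR adjusted p = 1.65e-15) and 0.78 (SE 0.038, edgeR adjusted p = 9.04e-14), and RUNX2 fell, at -1.11 (SE 0.108, edgeR adjusted p = 9.3e-09). With shPDK1_2 COL1A1 changed by 0.51 (SE 0.040, edgeR adjusted p = 1.92e-10), SPARC by 0.24 (SE 0.031, edgeR adjusted p = 1.35e-06) and COL1A2, at under 2 CPM in every library, by 2.29 (SE 0.571, edgeR adjusted p = 0.00355). The 8 markers summed to 976 to 1052 CPM in non-OSC, 1972 to 2066 in OSC, 2191 to 2273 in shCtrl, 2350 to 2449 in shPDK1_1 and 2813 to 2953 in shPDK1_2. The 9 markers of epithelial, immune, endothelial and fibroblast cells summed to 4.41 to 5.59 CPM in non-OSC, 6.07 to 7.64 in OSC, 4.84 to 5.48 in shCtrl, 4.61 to 7.15 in shPDK1_1 and 6.88 to 8.09 in shPDK1_2. Of these, the fibroblast marker LUM, at a mean of 0.409 CPM in shCtrl, was called higher with shPDK1_2, by a log2 change of 2.15. EPCAM at 0.77 and CD74 at -1.13 did not pass in that comparison, and the others had too few counts to be tested. PTPRC, the pan-leukocyte marker, was at 0 in 12 libraries, and the part of either set of markers in the results below was not tested.

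The 77 core members lie on 21 chromosomes, 12 of them on chromosome 19, in transcripts of 3 to 10 exons whose coding sequence runs from 75 bases (RPL41) to 1281 bases, with a median of 456. The annotation, GENCODE 44 on GRCh38, lists 1600 pseudogenes named after a member, between 1 and 133 for a core member with a median of 14. RPL21 has 133, RPL23A 91, RPL7A 80 and RPSA 74. Each coding sequence was divided into all its stretches of 75 bases, and a median of 28.1% of a core member's stretches occurred exactly in another gene's transcript. For 12 core members no stretch did, and for 29 more than 50% did. In a library, 25.8% to 40.4% of the members had an expected count that was not a whole number. This happens when reads that fit several transcripts are divided among them. Over all 62700 genes the figure was 6.44% to 7.19%. Of those genes only 14287 (OSC and non-OSC table) and 14574 (shRNA table) had enough counts to be tested, against 87 of the 89 members. A gene without reads has a whole count, so the contrast mixes expression with shared sequence and cannot measure the latter. The counts assigned to the pseudogenes were small beside those of the members, 0.875% to 1.03% of them.

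The RefSeq promoter table (GRCh38.p14, from 250 bases before to 50 after an annotated start) held 70 of the 89 members, 62 of them core. A run of at least 5 C or T bases that opened with C and began within 3 bases of a listed start was present in 52 of the 62 core members, which is 83.9%, against 4374 of 27305 genes or 16.0%. Genes with a single listed start gave 84.6% of 52 core members and 13.0% of 22114 genes. The runs of the core members were 5 to 22 bases long, with a median of 9. Among the 6 paralogs in the table, RPL22L1 alone had such a run. The 30 bases around the start are shown for the 4 core members that fell the most in OSC, and for RPLP0 as a common reference gene, with the run in capitals and 15 bases on each side of the start. Each spans the end of the promoter and the first bases of the first exon. A run is a description of these letters, and its translation was not measured.

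RPS28: tccccgaagcacgtgaCTCCTCTCCgccag
RPS7: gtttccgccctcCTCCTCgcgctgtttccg
RPSA: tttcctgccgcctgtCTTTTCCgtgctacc
RPL11: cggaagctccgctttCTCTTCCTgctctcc
RPLP0: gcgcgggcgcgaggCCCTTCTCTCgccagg

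These windows are RPS28 at chr19:8321481-8321510 on the plus strand, RPS7 at chr2:3575245-3575274 plus, RPSA at chr3:39406705-39406734 plus, RPL11 at chr1:23691791-23691820 plus (1 of its 2 listed starts) and RPLP0 at chr12:120201097-120201126 minus. For the pairs of a core member and a paralog that are compared further on, the core member is given first and the paralog after it, to show that 3 paralogs lack the run their core member has.

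RPL26: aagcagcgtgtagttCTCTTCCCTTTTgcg
RPL26L1: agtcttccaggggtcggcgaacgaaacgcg
RPS27: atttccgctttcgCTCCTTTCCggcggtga
RPS27L: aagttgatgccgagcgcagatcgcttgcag
RPL36A: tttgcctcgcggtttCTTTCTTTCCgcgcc
RPL36AL: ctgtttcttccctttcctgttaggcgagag

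RPL26 is at chr17:8383179-8383208 minus, RPL26L1 at chr5:172958714-172958743 plus, RPS27 at chr1:153990747-153990776 plus, RPS27L at chr15:63157463-63157492 minus, RPL36A at chrX:101390996-101391025 plus and RPL36AL at chr14:49620612-49620641 minus. In RPL36AL a stretch of C and T bases crosses the listed start, but no C within 3 bases of it opens a run of 5. The letters CCGGAAG, the core that ETS factors bind, occurred on either strand in the 300 bases of 22 core members (35.5%) and of 12.2% of all genes. AAGATGG, from the YY1 motif, occurred in 8 (12.9%) and in 7.11% of all genes. The letters AAG are common to both strings, so that 1 stretch can hold the end of one and the start of the other.

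The members took a large and uneven share of the counts over all genes. Their summed counts were 8.28%, 8.45% and 8.61% of the library in non-OSC, and 5.28%, 5.43% and 5.47% in OSC. In the shRNA table they were 5.74%, 5.90% and 5.96% in shCtrl, 6.31%, 6.36% and 6.25% in shPDK1_1 and 7.05%, 7.21% and 7.12% in shPDK1_2. No library of one group reached the range of another group in its table, and the share rose in the order shCtrl, shPDK1_1, shPDK1_2, with group means of 5.87% ± 0.111, 6.31% ± 0.0542 and 7.13% ± 0.0834 (SD, n = 3). The means of non-OSC and OSC were 8.45% ± 0.163 and 5.39% ± 0.103 (SD, n = 3). Large-subunit core members took 5.03% in non-OSC and 3.22% in OSC, and small-subunit core members 3.34% and 2.11%. Genes of the mitochondrial genome took 2.69% to 2.88% of counts in non-OSC and 2.94% to 3.15% in OSC, and 3.59% to 3.89%, 3.10% to 3.63% and 3.65% to 3.82% in shCtrl, shPDK1_1 and shPDK1_2.

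**Figure D1:**
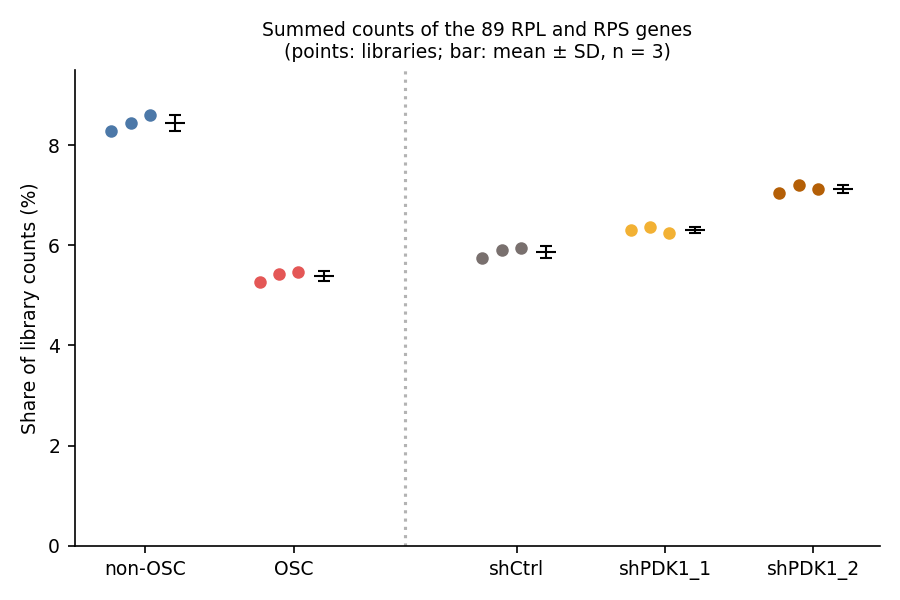
Summed counts of the 89 RPL and RPS genes as a percent of all counts of a library (vertical axis), with 1 point per library and the mean ± SD of 3 libraries per group, the tables separated by a dotted line. Non-OSC libraries sit at 8.28% to 8.61% and OSC libraries at 5.28% to 5.47%, while the shRNA groups climb from 5.74% in the lowest shCtrl library to 7.21% in the highest shPDK1_2 library.

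On a scale that allows genes to be compared, CPM per kilobase of coding sequence averaged over the 15 libraries, the highest levels were those of RPL41 (9120.4), RPS27 (3964) and RPL37A (3875). All 3 encode small proteins, and reads from untranslated ends count towards the level, so that the 75 coding bases of RPL41 overstate it. The lowest core member was RPS7 at 480.1, and the lowest of all were RPS10-NUDT3 at 20.4, RPL3L at 0.0975 and RPL10L at 0. RPL10L, a retrocopy used in the testis, had 0 counts in every library, which allows up to 3 counts per library, and RPL3L, the form of RPL3 found in heart and skeletal muscle, had 0 to 3 counts. These 2 were not tested, and the other 87 members passed the filter on low counts in both tables.

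All 77 core members were lower in OSC than in non-OSC. By the quasi-likelihood test of edgeR, with p adjusted over 14287 genes by the Benjamini-Hochberg method, 84 of the 87 tested members fell, 2 rose (RPL17-C18orf32 and RPL39L) and 1 did not pass (RPS27L). Over all genes tested, 31.5% were called lower and 32.4% higher in this comparison. The core members fell by a median of 0.71 on the log2 scale, within -1.05 to -0.39, which left 48.2% to 76.4% of the non-OSC level with a median of 61.1%. The median over all tested genes was -0.01. Large-subunit members had a median of -0.70 and small-subunit members of -0.77. The OSC and non-OSC ranges were apart in 86 of the 87 members and in 66.9% of all genes.

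**Figure D2:**
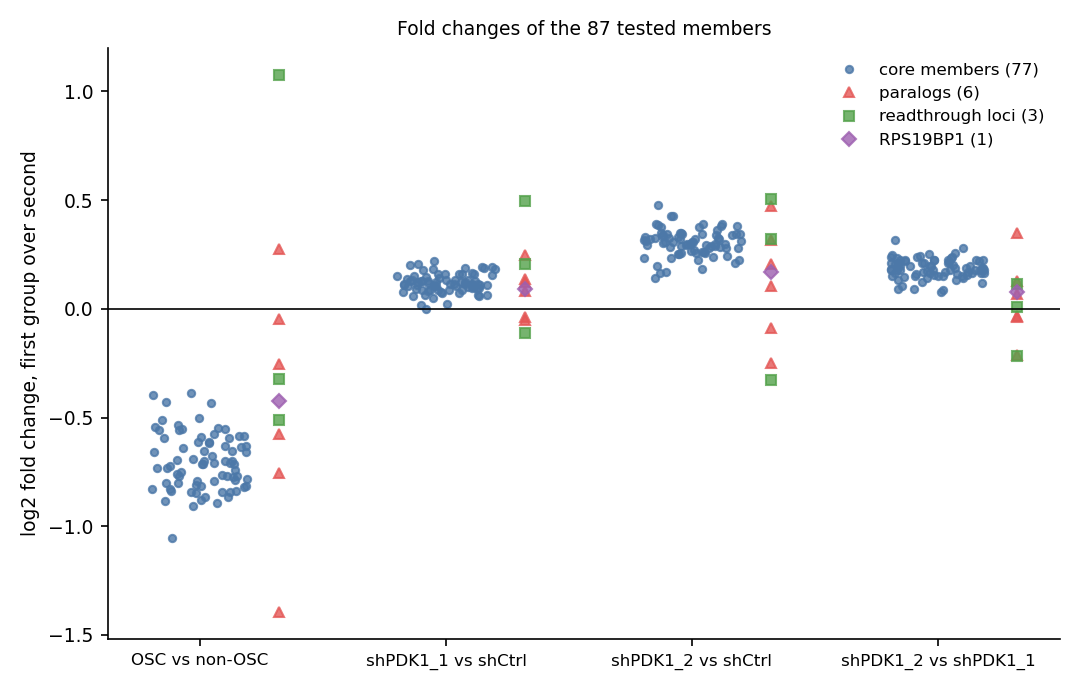
Log2 fold changes of the 87 tested members (vertical axis) in the 4 comparisons, with circles for the 77 core members and triangles, squares and a diamond for the paralogs, readthrough loci and RPS19BP1. The core members form a compact cloud at -1.05 to -0.39 in OSC against non-OSC and at 0.14 to 0.48 in shPDK1_2 against shCtrl, and the paralogs and readthrough loci spread more widely, some inside the core range and some beyond it on either side, as RPL26L1 at -1.39 and RPL17-C18orf32 at 1.08 in OSC.

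RPS28, a small protein at the messenger RNA exit site of the 40S subunit, fell the most among core members. It had 586, 678 and 669 CPM in the non-OSC libraries and 292, 305 and 336 in the OSC libraries. The lowest non-OSC library was above the highest OSC library, and the log2 change was -1.05 (SE 0.056, edgeR adjusted p = 4.88e-13). RPS28 (ENSG00000233927.5, chr19:8321158-8323340, plus strand) is among the genes whose coding stretches all occur elsewhere, and 20.6% of its exon bases are overlapped by a gene on the other strand. RPS7, which takes part in making the 40S subunit and binds MDM2 when free, had 345, 379 and 406 CPM in non-OSC and 196, 204 and 202 in OSC. Its groups were far apart as well, with a log2 change of -0.90 (SE 0.054, edgeR adjusted p = 3.16e-12).

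RPSA, the 40S protein also known as the laminin receptor, was measured at 1876, 1886 and 1971 CPM in non-OSC and 1018, 1038 and 1029.7 CPM in OSC. Its log2 change was -0.89 (SE 0.035, edgeR adjusted p = 2.49e-15), and replicates of either group differed by far less than the groups did. RPL11, which with RPL5 and 5S RNA forms the particle that inhibits MDM2, had 921, 903 and 975 CPM in non-OSC and 517, 509 and 493 CPM in OSC, a log2 change of -0.88 (SE 0.041, edgeR adjusted p = 4.43e-14). No coding stretch of RPL11 (ENSG00000142676.14, chr1:23691742-23696835, plus strand) occurs elsewhere. RPL5, its partner, had 1132, 1039 and 1070.4 CPM in non-OSC and 668, 653 and 658 in OSC, and fell less, with a log2 change of -0.71 (SE 0.040, edgeR adjusted p = 9.54e-13).

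Members often used as a reference in quantitative PCR were not stable in this comparison. RPLP0, the scaffold of the ribosomal stalk, had 2761, 2832 and 2903 CPM in non-OSC and 1689, 1705 and 1846 CPM in OSC. The log2 change of RPLP0 was -0.70 (SE 0.037, edgeR adjusted p = 4.69e-13). RPL13A, which also leaves the ribosome in the interferon response, had 2728, 2897 and 2993 CPM in non-OSC and 1645, 1793 and 1893 CPM in OSC, a change of -0.69 (SE 0.044, edgeR adjusted p = 8.53e-12). For RPS18, a protein of the 40S head, the libraries read 2044, 2103 and 2171 CPM and 1433, 1416 and 1442 CPM, a change of -0.56 (SE 0.034, edgeR adjusted p = 5.13e-12). All 3 lay within the range of the other core members, and RPS18 fell less than the median member.

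RPS6, the phosphorylated substrate of the S6 kinases, had 2073, 1930.2 and 2029.9 CPM in non-OSC and 1336, 1343 and 1344 in OSC, a log2 change of -0.58 (SE 0.035, edgeR adjusted p = 3.69e-12). RPS19, the gene most often mutated in Diamond-Blackfan anaemia, had 916, 1020.3 and 1039 CPM in non-OSC and 539, 570.2 and 616 in OSC, a log2 change of -0.79 (SE 0.051, edgeR adjusted p = 1.1e-11). The smallest falls among core members were those of RPL15, at -0.39 (SE 0.037, edgeR adjusted p = 6.33e-09), and of RPS9, at -0.40 (SE 0.050, edgeR adjusted p = 4.35e-07), both named here after their values were seen. RPL15 still fell from 1335, 1308 and 1321 CPM to 971, 1041 and 1017 CPM without overlap.

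**Figure D3:**
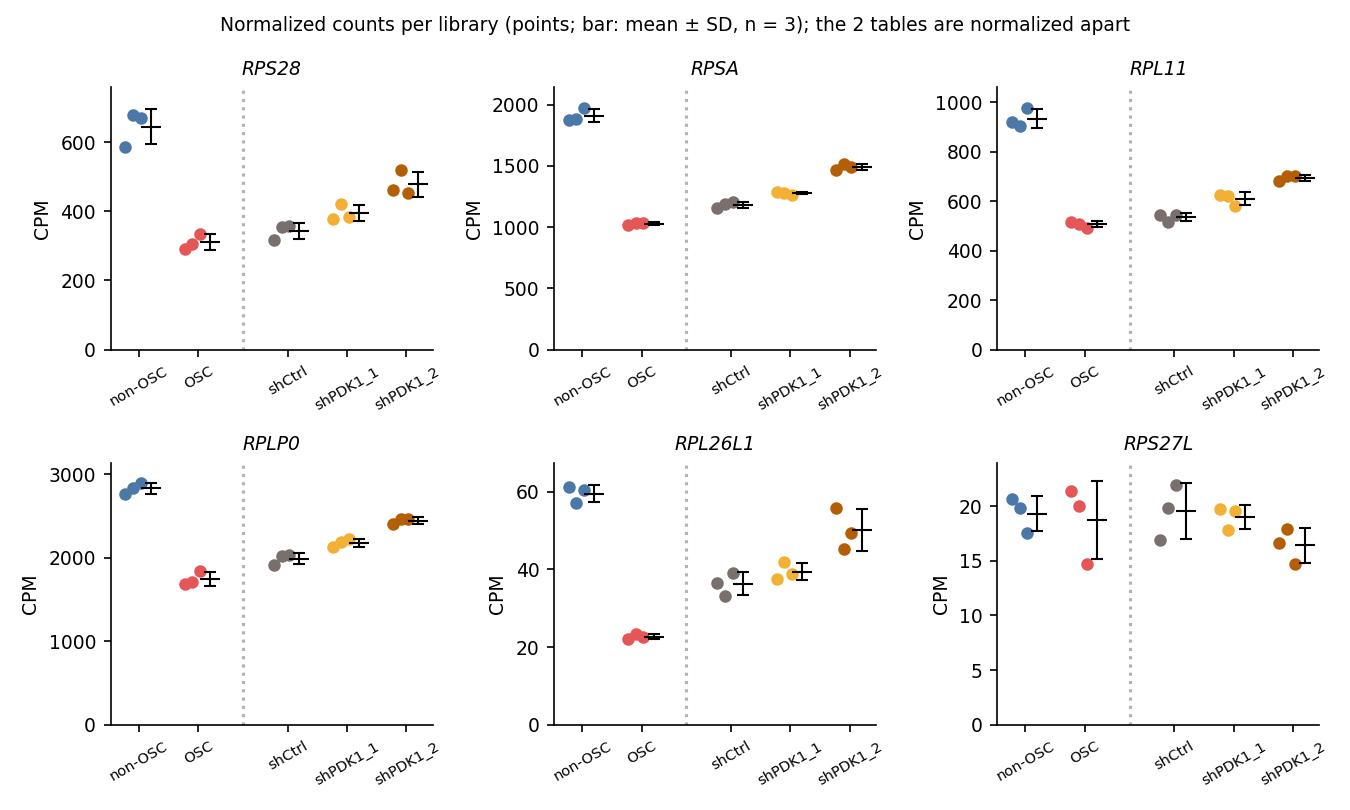
CPM (vertical axis, from 0) of RPS28, RPSA, RPL11, RPLP0, RPL26L1 and RPS27L in each of the 15 libraries, with points for libraries and a bar for the mean ± SD of 3, and a dotted line between the tables, which were normalized apart. The first 5 genes drop from non-OSC to OSC and climb from shCtrl to shPDK1_2, as RPS28 does from 316 to 357 CPM up to 453 to 519 CPM, while the groups of RPS27L overlap within each table.

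With the second shRNA against PDK1, all 77 core members were higher than in shCtrl. Of the 87 tested members 82 rose and 0 fell by edgeR's test, where 12% of the 14574 tested genes were called higher and 14.2% lower. DESeq2 called 80 higher and 0 lower, and 86 members had an unadjusted p under 0.05, against 5273 of the 14574 tested genes. How many of all genes DESeq2 called was not counted, so its numbers of members here and below have no such share. The core members rose by a median of 0.31 on the log2 scale, within 0.14 to 0.48, to 110.2% to 139.5% of the control level with a median of 123.7%. The median over all tested genes was 0.01. Large-subunit members had a median of 0.30 and small-subunit members of 0.31. In 82 members the libraries did not overlap, against 39.5% of genes. The 5 members that did not pass were RPL36AL, RPL39L, RPS27L, RPL17-C18orf32 and RPS19BP1.

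RPS28, the core member with the largest fall in OSC, also had the largest core rise with shPDK1_2. It stood at 316, 356 and 357 CPM in shCtrl and at 463, 519 and 453 CPM in shPDK1_2, a log2 change of 0.48 (SE 0.053, edgeR adjusted p = 9.71e-08). RPL32, a 60S protein, rose from 471, 478 and 481 CPM to 640.4, 656 and 628 CPM, a log2 change of 0.43 (SE 0.036, edgeR adjusted p = 7.99e-10). Replicates of RPL32 differed little within each group. RPL37, a zinc-binding 60S protein, rose from 479, 456 and 473 CPM to 624, 631 and 639 CPM, a log2 change of 0.43 (SE 0.036, edgeR adjusted p = 1.02e-09). RPL10, the protein that joins the 60S subunit last, had the smallest core rise, from 1802, 1792 and 1809.5 CPM to 1956, 2023 and 1978 CPM, a log2 change of 0.14 (SE 0.030, edgeR adjusted p = 0.000768). RPL10 was named for its place in a paralog pair, and a gene on the other strand overlaps 50.5% of its exon bases.

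Among the members followed through both tables, RPSA had 1155, 1186 and 1206 CPM in shCtrl and 1468, 1514 and 1493 CPM in shPDK1_2, a log2 change of 0.34 (SE 0.031, edgeR adjusted p = 5.61e-09). RPL11 had 545, 518 and 542 CPM and 682, 701 and 701 CPM, a log2 change of 0.38 (SE 0.037, edgeR adjusted p = 1.83e-08), and RPL5 changed by 0.26 (SE 0.042, edgeR adjusted p = 3.65e-05). In these genes no shPDK1_2 library fell into the shCtrl range. The reference genes moved too: RPLP0 changed by 0.30 (SE 0.031, edgeR adjusted p = 4.03e-08), from 1916, 2025 and 2029 CPM to 2404, 2468 and 2469 CPM. RPL13A changed by 0.30 (SE 0.031, edgeR adjusted p = 4.84e-08) and RPS18 by 0.34 (SE 0.036, edgeR adjusted p = 3.61e-08). RPS6 changed by 0.28 (SE 0.032, edgeR adjusted p = 1.5e-07) and RPS19 by 0.32 (SE 0.038, edgeR adjusted p = 3.09e-07).

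With the first shRNA fewer members passed. Of the 87 tested members 29 rose and 0 fell, where 1.62% of genes were called higher and 1.44% lower, and DESeq2 called 38 higher and 0 lower. Without adjustment, 69 members had p under 0.05, against 2107 of the 14574 tested genes. The core members had a median of 0.11 on the log2 scale, within -0.00 to 0.22, against 0.00 over all genes, and the estimate was above 0 in 76 of 77. In 61 members the libraries did not overlap, against 19.3% of genes. The count of 29 depended on single libraries: it was 8 without shCtrl replicate 1, 17 without shCtrl replicate 2, 14 without shPDK1_1 replicate 1 and 13 without shPDK1_1 replicate 3.

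RPL7, a 60S protein that binds RNA, had the largest core rise with this shRNA, from 1006, 1017 and 1024 CPM in shCtrl to 1236, 1126 and 1193 CPM in shPDK1_1. Its log2 change was 0.22 (SE 0.034, edgeR adjusted p = 0.000217). RPS27A, made as a fusion with ubiquitin, rose from 549, 571 and 595 CPM to 671, 654 and 652 CPM, a log2 change of 0.20 (SE 0.037, edgeR adjusted p = 0.00164). Neither call was lost without any 1 library. RPS28 had 378, 420.3 and 383 CPM in shPDK1_1, a log2 change of 0.20 (SE 0.053, edgeR adjusted p = 0.0343), which did not pass without shCtrl replicate 1 or 2 or without shPDK1_1 replicate 2 or 3. RPS7 had 222, 245 and 246 CPM in shCtrl and 259, 278 and 277 CPM in shPDK1_1, a log2 change of 0.19 (SE 0.045, edgeR adjusted p = 0.0134), lost without shCtrl replicate 1 or shPDK1_1 replicate 3.

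RPL11 had 627, 622 and 581 CPM in shPDK1_1 and rose by a log2 change of 0.19 (SE 0.038, edgeR adjusted p = 0.00352), and RPL5 had 834, 736 and 829.5 CPM, with a log2 difference of 0.11 (SE 0.042, edgeR adjusted p = 0.172) that did not pass. One shPDK1_1 library of RPL5, replicate 2, lay just under the control range. The reference genes were near the threshold: RPLP0 at 0.13 (SE 0.031, edgeR adjusted p = 0.0136), lost without shCtrl replicate 1 or shPDK1_1 replicate 3, and RPS18 at 0.16 (SE 0.036, edgeR adjusted p = 0.0107), lost without shCtrl replicate 1 or 2 or shPDK1_1 replicate 1. RPL13A at 0.11 (SE 0.032, edgeR adjusted p = 0.0491) and RPSA at 0.11 (SE 0.031, edgeR adjusted p = 0.0485) were each lost in 10 alternatives. RPS9, with 782, 876 and 817 CPM in shPDK1_1 around its control level of 822, 828 and 827 CPM, had the only core estimate below 0, at -0.00 (SE 0.039, edgeR adjusted p = 0.996).

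The difference between the shRNAs was itself tested, by the contrast of shPDK1_2 with shPDK1_1. Of the 87 members 76 were higher with shPDK1_2 and 0 lower, where 6.5% of genes were called higher and 9.78% lower, and 74 of the 77 core members were among the 76. DESeq2 called 78 higher and 0 lower, and 79 members had an unadjusted p under 0.05, against 4123 of the 14574 tested genes. The core median was 0.19 on the log2 scale, and the libraries did not overlap in 79 members, against 30.7% of genes. The 3 core members that did not pass were RPL10, RPL22 and RPS4X, with log2 differences of 0.08, 0.09 and 0.09. PDK1 itself differed in the other direction, by -0.50 (SE 0.091, edgeR adjusted p = 0.00024).

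RPS29, a small zinc-binding 40S protein, showed the difference most among core members. It had 262, 249.7 and 231 CPM in shCtrl, 257, 264 and 235 in shPDK1_1 and 306, 312 and 324 in shPDK1_2. The first 2 groups overlapped and the third lay above both, with a log2 difference between shRNAs of 0.32 (SE 0.049, edgeR adjusted p = 2.72e-05) and from shCtrl to shPDK1_1 of 0.02 (edgeR adjusted p = 0.889). RPS28 differed between the shRNAs by 0.28 (SE 0.052, edgeR adjusted p = 0.000342). RPS2, at the mouth of the messenger RNA entry channel, had 2151, 2206 and 2054 CPM in shPDK1_1 and 2484, 2650.1 and 2518 CPM in shPDK1_2, a log2 difference of 0.26 (SE 0.032, edgeR adjusted p = 2.23e-06). RPL35A, another gene mutated in Diamond-Blackfan anaemia, had 440.3, 413 and 414 CPM and 504, 492 and 512 CPM, a log2 difference of 0.25 (SE 0.038, edgeR adjusted p = 2.23e-05). The groups of these genes did not overlap.

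The spread between core members differed by comparison. In OSC against non-OSC the log2 changes of the 77 core members had an SD of 0.131, with a median SE of 0.0411. With shPDK1_1 the SD was 0.0440 and the median SE 0.0377, a spread little wider than the error of 1 gene. With shPDK1_2 the values were 0.0617 and 0.0376.

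The table of OSC and non-OSC shares no library with the shRNA table, which allows the changes to be set beside each other gene by gene. Across the 77 core members, the change in OSC against non-OSC and the change with shPDK1_2 had a Pearson's r of -0.501 and a Spearman's rho of -0.438, so members that fell further tended to rise further. For shPDK1_1 the values were -0.314 and -0.222. The points are genes and not independent replicates, and they share libraries, depth and gene properties. RPS28 and RPS7 were at one end, and RPL15 and RPS9 at the other. The change with shPDK1_2 also ran with shorter coding sequence (r = -0.375, rho = -0.333) and lower mean CPM (r = -0.343, rho = -0.335), and the change with shPDK1_1 with lower GC content of the coding sequence (r = -0.428, rho = -0.415). The change in OSC ran weakly with these, with r of 0.101 for length, -0.0635 for GC content and 0.26 for mean CPM. The part of length, GC content and level in these patterns was not tested.

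**Figure D4:**
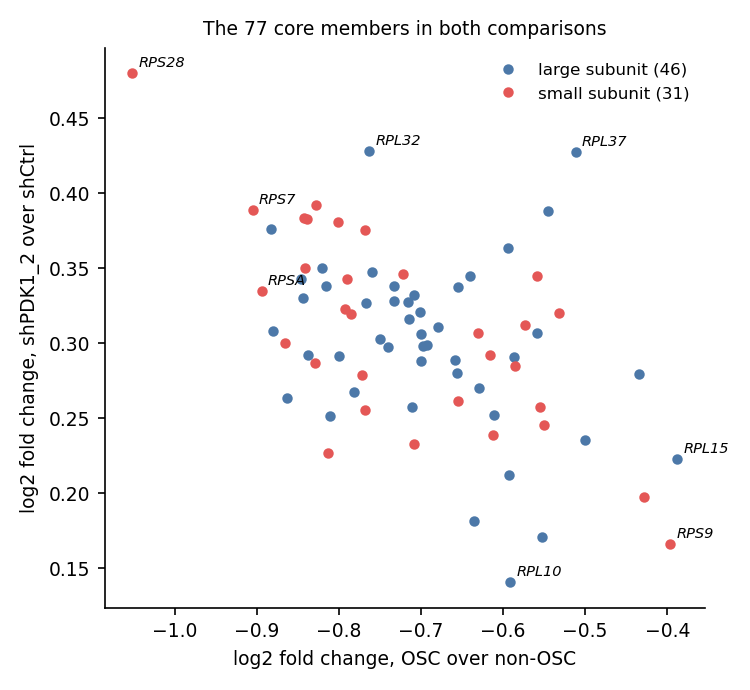
Log2 fold change of each of the 77 core members in OSC against non-OSC (horizontal axis) and in shPDK1_2 against shCtrl (vertical axis), coloured by subunit, with 8 genes named. All points lie left of 0 and above 0, RPS28 at -1.05 and 0.48 stands apart at the upper left, and RPS9 and RPL15 lie at the lower right.

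The direction was the same in core members with and without sequence shared with pseudogenes or other members. The 12 core members with no coding stretch elsewhere were lower in OSC in 12 of 12, with a median of -0.78, and higher with shPDK1_2 in 12 of 12, with a median of 0.32. Of the 29 with more than 50% of stretches elsewhere, 29 were lower in OSC with a median of -0.72 and 29 higher with shPDK1_2 with a median of 0.31. With shPDK1_1, 1 of the 12 and 13 of the 29 passed, and the medians were 0.11 and 0.12. Over the 52 core members with the pyrimidine run at the start and the 10 without it, the medians in OSC were -0.70 and -0.80, and with shPDK1_2 they were 0.32 and 0.26.

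The paralogs did not all follow the core members. Some of the paralogs are thought to replace their namesake in some ribosomes or tissues, and for 6 pairs both genes were measured. RPL26L1, close in sequence to RPL26, moved the most. It had 61.1, 57.03 and 60.5 CPM in non-OSC and 22.1, 23.4 and 22.5 CPM in OSC, a log2 change of -1.39 (SE 0.084, edgeR adjusted p = 3.84e-12) that exceeded every core member's. In the shRNA table it had 36.5, 33.2 and 39.1 CPM in shCtrl, 37.6, 41.9 and 38.8 in shPDK1_1 and 55.97, 45.2 and 49.3 in shPDK1_2. The first 2 of these groups overlapped and shPDK1_2 lay above both, with a log2 change from shCtrl of 0.47 (SE 0.087, edgeR adjusted p = 0.000153) and from shPDK1_1 of 0.35 (SE 0.085, edgeR adjusted p = 0.00482), the last lost without shPDK1_2 replicate 1. RPL26 changed by -0.84 in OSC and 0.33 with shPDK1_2. The RPL26L1 share of the counts of the pair was 4.93% ± 0.112 in non-OSC and 3.41% ± 0.109 in OSC (SD, n = 3), without overlap. In shCtrl and shPDK1_2 the share was 4.72% ± 0.412 and 5.15% ± 0.463 (SD, n = 3), with overlapping libraries. Of the coding stretches of RPL26L1 (ENSG00000037241.7, chr5:172958729-172969771, plus strand), 29.6% occur elsewhere.

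RPS27L, a p53 target, was the 1 tested member that did not pass in OSC, while RPS27 fell. It had 20.6, 19.8 and 17.5 CPM in non-OSC and 21.4, 20.03 and 14.7 CPM in OSC, groups that overlapped, with a log2 difference of -0.04 (SE 0.131, edgeR adjusted p = 0.785). RPS27 fell from 1358, 1310.0 and 1399.9 CPM to 819, 783 and 781 CPM, a log2 change of -0.77 (SE 0.038, edgeR adjusted p = 1.27e-13). The RPS27L share of the pair was thus 1.41% ± 0.148 in non-OSC and 2.30% ± 0.387 in OSC (SD, n = 3), without overlap. In the shRNA table it was 2.24% ± 0.214 in shCtrl, 1.96% ± 0.0384 in shPDK1_1 and 1.56% ± 0.146 in shPDK1_2 (SD, n = 3). RPS27L had 16.9, 19.9 and 21.99 CPM in shCtrl and 16.7, 17.9 and 14.7 CPM in shPDK1_2, with a log2 difference of -0.25 (SE 0.116, edgeR adjusted p = 0.121).

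RPL36AL, an intron-poor copy of RPL36A, fell less than it. RPL36AL had 149, 147 and 151 CPM in non-OSC and 115, 125 and 135 CPM in OSC, a log2 change of -0.25 (SE 0.059, edgeR adjusted p = 0.000888), and RPL36A changed by -0.72 (SE 0.046, edgeR adjusted p = 1.22e-11). The RPL36AL share was 22.0% ± 0.498 in non-OSC and 27.9% ± 0.749 in OSC (SD, n = 3), without overlap, and 25.2% ± 1.3 in shCtrl and 22.5% ± 0.827 in shPDK1_2. RPL39L, best known from the testis and some tumours, was the 1 paralog that rose in OSC. It had 16.5, 21.1 and 19.7 CPM in non-OSC and 21.3, 23.1 and 24.9 CPM in OSC, a log2 change of 0.28 (SE 0.116, edgeR adjusted p = 0.0419) that did not pass with DESeq2, without non-OSC replicate 1 or 3, or without OSC replicate 2 or 3. RPL39 fell, with a log2 change of -0.43 (SE 0.044, edgeR adjusted p = 1.92e-08), and the RPL39L share was 2.68% ± 0.452 in non-OSC and 4.28% ± 0.193 in OSC (SD, n = 3), without overlap.

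RPL22L1 and RPL7L1 fell in OSC, as did RPL22 and RPL7. RPL22L1, which can stand in for RPL22 in blood cell development, had 18.4, 18.9 and 19.2 CPM in non-OSC and 10.6, 11.3 and 11.5 CPM in OSC, a log2 change of -0.76 (SE 0.123, edgeR adjusted p = 1.57e-05), and RPL22 changed by -0.59 (SE 0.039, edgeR adjusted p = 1.79e-11). With shPDK1_2 RPL22L1 changed by 0.32 (SE 0.111, edgeR adjusted p = 0.0363), a call lost in 7 alternatives, among them the fits without shCtrl replicate 1 or 2 and without any 1 shPDK1_2 library. The RPL22L1 share of the pair was 2.32% ± 0.0719 in non-OSC and 2.07% ± 0.121 in OSC (SD, n = 3), without overlap. RPL7L1, a factor of nucleolar pre-rRNA processing, had 328, 327 and 323 CPM in non-OSC and 220.3, 219.8 and 215 CPM in OSC, a log2 change of -0.58 (SE 0.044, edgeR adjusted p = 2.11e-10), and changed by 0.21 (SE 0.042, edgeR adjusted p = 0.000447) with shPDK1_2. With shPDK1_1, where RPL7 had the largest core rise, the log2 difference of RPL7L1 was 0.08 (SE 0.042, edgeR adjusted p = 0.397), with overlapping libraries. Its share of the pair with RPL7 was 17.6% ± 0.665 in non-OSC and 19.2% ± 0.275 in OSC (SD, n = 3), without overlap. An exact permutation test of 3 libraries against 3 cannot give p under 0.10, so the shares carry no test. The shares also rest on divided reads. Of the coding stretches of RPL36A, RPL39 and RPS27, 100% occur elsewhere, and of those of RPL22, RPL7 and RPL26, 96.5%, 96% and 76.5%. The readthrough locus RPL36A-HNRNPH2, with 80.7% elsewhere, is not counted in the pair of RPL36A.

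**Figure D5:**
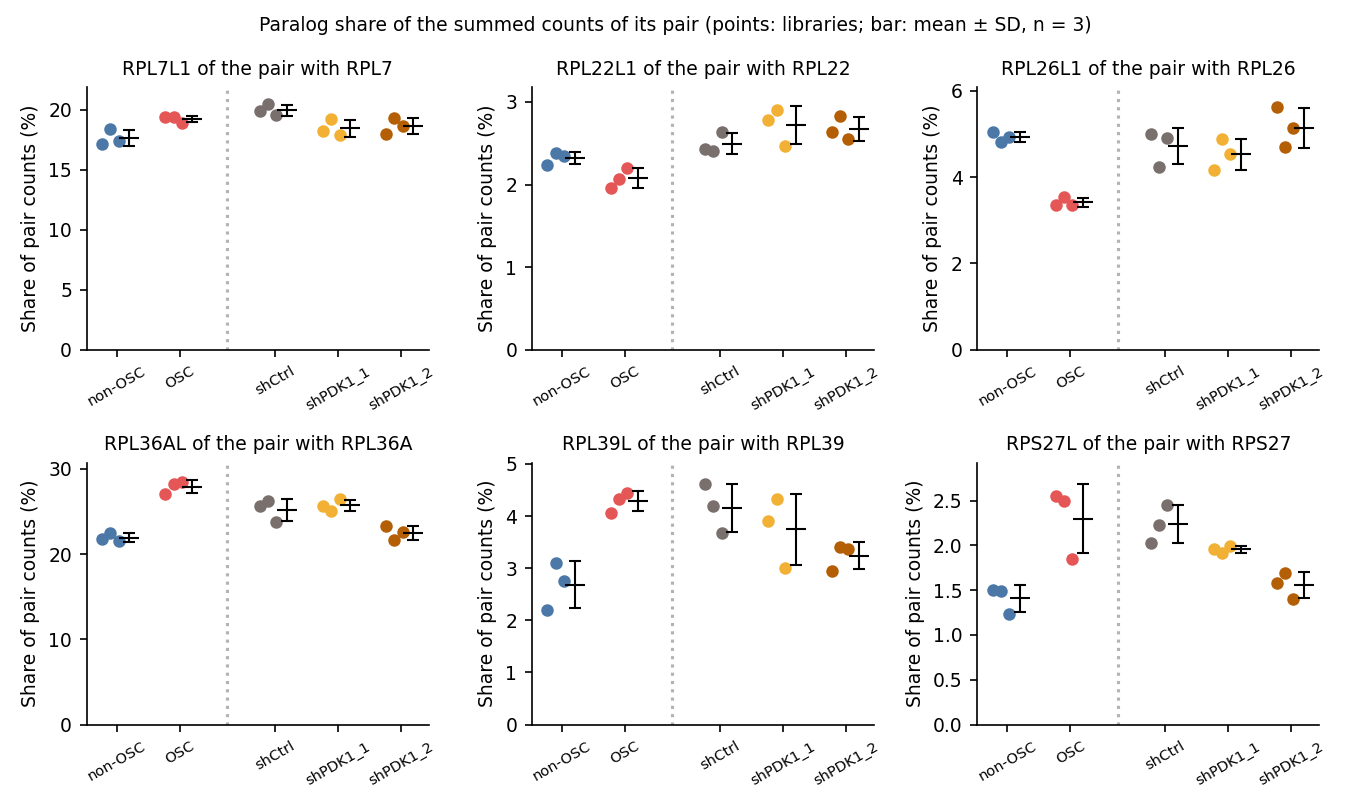
Percent of the summed counts of a pair that fall on the paralog (vertical axes, from 0) for the 6 pairs in which both genes were measured, with 1 point per library and the mean ± SD of 3. From non-OSC to OSC the share of RPL26L1 drops from 4.93% to 3.41%, while those of RPL36AL, RPL39L and RPS27L climb, the last from 1.41% to 2.30%.

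The readthrough loci are transcripts that run from a core member into the next gene, and their reads are largely shared with it. RPL17-C18orf32, with 88% of its coding stretches elsewhere, had 8.97, 8.21 and 10.4 CPM in non-OSC and 17.00, 21.1 and 19.8 CPM in OSC, a log2 change of 1.08 (SE 0.140, edgeR adjusted p = 7.11e-07). RPL17 itself changed by -0.86 (SE 0.042, edgeR adjusted p = 9.07e-14), in the opposite direction, and with reads divided between these loci the readthrough estimate is uncertain. RPS10-NUDT3, with 91.1% elsewhere, fell in OSC, at -0.51 (SE 0.144, edgeR adjusted p = 0.00383). It rose from 15.1, 15.7 and 11.1 CPM in shCtrl to 22.6, 18.01 and 19.1 in shPDK1_1 and 23.2, 17.6 and 18.96 in shPDK1_2, by log2 changes of 0.50 (SE 0.136, edgeR adjusted p = 0.0429) and 0.51 (SE 0.135, edgeR adjusted p = 0.0062). The first of these was lost in 7 alternatives, among them the fits without each shCtrl library and without shPDK1_1 replicate 1 or 3, and the second without shCtrl replicate 3 or shPDK1_2 replicate 1. RPL36A-HNRNPH2 fell in OSC, at -0.32 (SE 0.083, edgeR adjusted p = 0.00185) and changed with shPDK1_2 by 0.32 (SE 0.106, edgeR adjusted p = 0.0269), with overlapping libraries and a call lost without shCtrl replicate 1 or 3, without shPDK1_2 replicate 1, or with DESeq2. RPS19BP1 fell in OSC, at -0.42 (SE 0.103, edgeR adjusted p = 0.0011), and with shPDK1_2 its log2 difference was 0.17 (SE 0.073, edgeR adjusted p = 0.0894).

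Genes that work with the ribosomal proteins were counted in the same fits. Of the 7 chaperones that carry single ribosomal proteins to the assembly site, 7 fell in OSC (median -0.78), with BCCIP, the partner of RPL23, at -1.11 (SE 0.087, edgeR adjusted p = 3.32e-10) and LTV1, a 40S assembly factor, at -1.08 (SE 0.101, edgeR adjusted p = 5.13e-09). With shPDK1_2 3 rose, BCCIP by 0.38, PDCD2L by 0.45 and PDCD2 by 0.27. The PDCD2L call was near the threshold (SE 0.163, edgeR adjusted p = 0.0412). Its libraries overlapped, with means of 9.11 CPM in shCtrl and 12.6 CPM in shPDK1_2. With shPDK1_1 0 of the 7 passed edgeR's adjusted threshold and 1 had an unadjusted p under 0.05 (median 0.10).

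A list of 29 genes held translation factors, many of them also made from TOP messenger RNAs. It also held TPT1, NAP1L1 and HNRNPA1, which are not translation factors. Of the 29 genes, 26 fell in OSC (median -0.56), led by the initiation factor subunits EIF3C at -1.01 (SE 0.043, edgeR adjusted p = 8.67e-15) and EIF3K at -0.97 (SE 0.079, edgeR adjusted p = 5.48e-10). The 3 that did not pass were EIF4A2, EIF4G2 and TPT1, named for the size of that count, with log2 differences of -0.11, 0.05 and -0.01. With shPDK1_2 19 of the 29 rose (median 0.15), led by PABPC1, the poly(A)-binding protein, at 0.41 (SE 0.031, edgeR adjusted p = 1.1e-10) and the elongation factor subunit EEF1G at 0.36 (SE 0.031, edgeR adjusted p = 1.51e-09). With shPDK1_1 6 rose. Of the 13 host genes of small nucleolar RNAs, 10 fell in OSC (median -0.55), led by SNHG1 at -1.39 (SE 0.065, edgeR adjusted p = 4.93e-14) and SNHG12 at -0.91 (SE 0.135, edgeR adjusted p = 4.96e-06). With shPDK1_2 5 rose and 1, ZFAS1, fell. ZFAS1 was at -0.47 (SE 0.056, edgeR adjusted p = 2.85e-07) and SNHG29, the largest rise, at 0.35 (SE 0.035, edgeR adjusted p = 2.37e-08). With shPDK1_1 ZFAS1 fell, at -0.23 (SE 0.055, edgeR adjusted p = 0.0185), and the other 12 hosts did not pass (median over the 13, -0.03).

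Of 15 regulators of TOP messenger RNAs and growth, 8 fell in OSC and 1, RICTOR, a partner of mTOR in its second complex, rose by 0.41 (SE 0.071, edgeR adjusted p = 3.86e-05). MTOR was at -0.83 (SE 0.053, edgeR adjusted p = 9.12e-12), EIF4EBP1, which blocks the cap-binding factor, at -0.71 (SE 0.062, edgeR adjusted p = 1.52e-09), and LARP1 at -0.55 (SE 0.040, edgeR adjusted p = 8.8e-11). MYC, which drives transcription of ribosomal protein genes, had 11.4, 13.9 and 16.5 CPM in non-OSC and 9.73, 14.4 and 11.8 CPM in OSC and did not pass, at -0.20 (SE 0.163, edgeR adjusted p = 0.286). With shPDK1_2 2 of the 15 rose and 2 fell, near the 12% and 14.2% of all genes, with log2 changes of 0.27 for MAX, 0.13 for MTOR, -0.30 for RICTOR and -0.25 for RHEB, which activates mTOR. LARP1 and MYC did not pass, at -0.06 (SE 0.039, edgeR adjusted p = 0.269) and -0.00 (SE 0.147, edgeR adjusted p = 0.993). With shPDK1_1 0 of the 15 passed edgeR's adjusted threshold and 4 had an unadjusted p under 0.05 (median -0.02). For these lists the shares of all genes called are those given for the members above.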

How the data were processed

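RNA-seq libraries from 15 samples of 143B cells were used, 3 in each of the 5 groups named in the labels. The authors deposited RSEM expected counts per gene in 2 tables, 1 with the OSC and non-OSC libraries and 1 with the shRNA libraries. The submitters' processing notes list Trimmomatic 0.39, FastQC 0.12.1, STAR 2.7.11a, RSEM 1.3.3 and the GRCh38.p14 build. RNA was total RNA prepared with a NEBNext Ultra kit and sequenced in pairs, and the annotation and the strand setting are not given in the sources used here. RSEM divides a read that fits several transcripts among them, so counts of genes with close copies are estimates. Every column was mapped to a sample by its name, and 0 columns were left out.

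The expected counts were rounded and tested with edgeR 4.0.16 (R 4.3.3, limma 3.58.1): filterByExpr, TMM factors, the quasi-likelihood F-test and Benjamini-Hochberg adjustment over all genes tested, 14287 in the first table and 14574 in the second, with a threshold of 0.05. The 9 shRNA libraries were fitted together. CPM values use the TMM-scaled library size, and the tables were scaled apart, so no level was tested across them. DESeq2 1.42.0, other scalings and filters, pseudogene counts added to their member, lowess offsets (span 0.3) for length and GC content and leaving out each replicate were tried as alternatives. Total counts were 9240947 to 10495051 in non-OSC, 7992499 to 9770022 in OSC, 8073055 to 9874318 in shCtrl, 8076943 to 11256536 in shPDK1_1 and 9625912 to 10768779 in shPDK1_2. Floors of 3 counts cover counting error only. Between replicates the chi-square per degree of freedom was 1.94 to 3.66, so no pair of libraries agreed within sampling noise.

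Gene positions, coding sequences and shared stretches of 75 bases were taken from GENCODE 44, in which all 62700 identifiers were found. Promoter windows came from the RefSeq table of GRCh38.p14, in which a gene counted as having a run or motif if any of its listed starts did. Named members were the 5 largest rises and falls in each comparison past the threshold with at least 10 CPM and no overlap of libraries, the paralog pairs, the 3 highest and 3 lowest per kilobase, RPLP0, RPL13A, RPS18, RPS6, RPS19, RPL5, RPL11 and the loci that mark no ribosomal protein of their own. Other lists were represented by their 2 largest changes past the threshold, with MYC and LARP1. A short list of further ribosomal components is not reported here. The members and lists were chosen with earlier results of these data known.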

Additional observations from a re-analysis of the deposited data

Results flagged for a closer look

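The effects of the 2 shRNAs differed for most members, by the test of shPDK1_2 against shPDK1_1 in edgeR's fit. The difference passed for 76 of the 87 tested members and for 74 of the 77 core members, each time with a higher level in shPDK1_2. The largest differences on the log2 scale were 0.35 for RPL26L1, 0.32 for RPS29, 0.28 for RPS28, 0.26 for RPS2 and 0.25 for RPL35A. PDK1 differed by -0.50. The test compares hairpins that share a control, and whether the hairpins differ in anything other than the PDK1 level was not tested.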

How the results depend on the processing

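The count of members lower in OSC was 84 under each choice that left out 1 library. The median of the members in OSC was -0.66 with library size alone and -0.63 with offsets for length and GC content, and -0.72 to -0.68 when leaving out 1 library. With shPDK1_2 the median was 0.28 to 0.32 when leaving out 1 library. Members higher in OSC numbered 1 with DESeq2 and 1 to 2 when leaving out 1 library. Members higher with shPDK1_1 numbered 8 to 32, and members lower with shPDK1_2 0 to 1, when leaving out 1 library. DESeq2 called 38 members higher with shPDK1_1, library size alone 23 and offsets for length and GC content 36. The shares of all genes called under these alternatives were not counted. Without genes of the mitochondrial genome the member share was 8.69% in non-OSC, 5.56% in OSC, 6.09% in shCtrl, 6.53% in shPDK1_1 and 7.40% in shPDK1_2. For most of these changes the cause was not tested.

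With the replicate number as a replicate block, 34 members were higher with shPDK1_1, 82 with shPDK1_2 and 76 in the contrast of the shRNAs, and in OSC 84 were lower and 2 higher. Libraries with the same number correlated by -0.0449 to 0.136 in their deviations from the group mean. Counting noise of low genes enters these values, so they cannot decide whether the numbers pair the samples. Of 212 alternatives to the summary values 193 stayed within their limits. Of 2164 alternatives to values of single genes and pairs, 91 lost a call, 24 gained one and 0 changed sign with a call. The remaining 2049 were counted as the same. They include genes that passed in neither fit and pair shares, which carry no call and stayed within their SD. With shPDK1_1 56 calls were lost, against 5 in OSC, 13 with shPDK1_2 and 17 in the contrast of the shRNAs. Depth limits RPL3L and RPL10L, and shared reads limit the readthrough loci.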
